A study of Mus musculus with 365 samples.

Results

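The nuclear genes for the subunits of oxidative phosphorylation were followed across the single mouse bone marrow progenitors of the series, 213 TN and 152 Ly6D+ cells. They were chosen by symbol. The rule used no measured value, although earlier results of these data were known when it was set. It took symbols starting with Ndufa, Ndufb, Ndufc, Ndufs, Ndufv, Uqcr, Cox4 to Cox8 or Atp5, together with Sdha, Sdhb, Sdhc, Sdhd and Cycs. Assembly factors named Ndufaf, the isoform gene Cox6a2 and pseudogenes were left out. The choice gave 85 of the 23427 genes in the count table, of which 36 belong to complex I, 4 to complex II, 8 to complex III, 19 to complex IV and 17 to complex V, with Cycs for cytochrome c. Ndufa4 was placed with complex IV, where its protein is found, and Cox7a2l, a factor that joins complexes III and IV, was kept beside the complex IV subunits. The genes that mitochondrial DNA encodes were not analysed here.

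Every cell was taken from the femur marrow of C57BL/6 Flt3Ltg mice, which are transgenic for Flt3 ligand, with 2 mice per pool, so both populations share this background and no mouse without the transgene was compared. Flt3 ligand drives the expansion of dendritic and early lymphoid precursors. The sorted cells are named EPLM, for their potential to make both lymphoid and myeloid cells, and were split into a Ly6D+ population and a TN (triple negative) population. Ly6D is a surface protein of lymphoid progenitors biased to the B lineage. The 213 TN cells were captured on chips 1, 2 and 3 (75, 69 and 69 cells) and the 152 Ly6D+ cells on chips 4, 5 and 6 (40, 60 and 52 cells). No chip held both populations, so chip and population cannot be told apart, and the chip was taken as the replicate. Nothing in the labels ties a chip to a mouse, so the p-values rest on chip-to-chip spread, which may be technical. The chips held 35734620 to 61415823 gene reads, with medians of 750934 to 1000074 reads per cell. The labels matched their gate gene: Ly6d was detected in 16% ± 2.8 of the cells in TN chips and in 95.2% ± 4.5 in Ly6D+ chips (SD, n = 3 each).

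Oxidative phosphorylation makes ATP at the inner mitochondrial membrane. Complex I (NADH dehydrogenase) and complex II (succinate dehydrogenase, also an enzyme of the tricarboxylic acid cycle) pass electrons to ubiquinone, complex III passes them to cytochrome c, and complex IV (cytochrome c oxidase) hands them to oxygen. Complexes I, III and IV pump protons, and complex V (ATP synthase) lets them flow back and makes ATP. Most subunit genes are expressed in nearly every cell type, and several complex IV subunits have isoforms restricted to muscle, lung or testis.

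Promoters of such genes are known for binding sites of NRF1, YY1, ETS factors and ERR, and the sequences that bear such letters are shown here because the genes are described below as a group. RefSeq promoters (GRCm38.p6, 250 bases before to 50 after the start) matched 70 of the 85 genes by symbol, and letters were searched on both strands. The NRF1 core GCGCATGCG was present in 9 of the 70 (12.9%), against 4.30% of promoters of the genes tested between the populations and 1.75% of all promoters. Because this core is nearly palindromic, the same site often matched on both strands and was counted once. Sites of 5 genes, 1 each from complexes I, III, IV and V and cytochrome c, are printed with the core in capitals and 10 bases on each side.
Cycs: catgctagctCGCATGCGCgcgcacaaac
Cox6a1: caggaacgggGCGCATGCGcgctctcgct
Uqcrc1: actccgctctGCGCATGCGcagcgcggct
Atp5k: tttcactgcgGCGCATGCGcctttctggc
Ndufa8: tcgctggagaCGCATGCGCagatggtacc
These windows lie at chr6:50566612-50566640 (minus strand) for Cycs, chr5:115349102-115349130 (minus) for Cox6a1, chr9:108936668-108936696 (plus) for Uqcrc1, chr5:108434431-108434459 (minus) for Atp5k and chr2:36049329-36049357 (minus) for Ndufa8. The first capital stands at position -61 from the start in Cycs, -162 in Cox6a1, 31 in Uqcrc1, -50 in Atp5k and -9 in Ndufa8.

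The YY1 letters AAGATGGCG were present in 7 of the 70 promoters (10%), against 3.83% of promoters of tested genes and 1.40% of all promoters. In 6 of the 7 genes they began 23 to 36 bases after the start, on the coding strand, and their ATG coincided with an annotated start codon (GENCODE vM21, GRCm38). Atp5j was the exception, with the letters at position -88. The sites of 5 of these 6 genes are printed to show this shared position, with the letters in capitals.
Ndufa9: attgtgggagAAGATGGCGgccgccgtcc
Ndufc1: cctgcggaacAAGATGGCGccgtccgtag
Ndufs6: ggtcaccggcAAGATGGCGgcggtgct
Ndufs7: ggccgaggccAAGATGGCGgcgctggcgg
Atp5j2: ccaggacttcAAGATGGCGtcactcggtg
The windows are chr6:126849097-126849125 (minus strand) for Ndufa9, chr3:51408915-51408943 (minus) for Ndufc1, chr13:73328433-73328459 (minus) for Ndufs6, chr10:80249463-80249491 (plus) for Ndufs7 and chr5:145191500-145191528 (minus) for Atp5j2. Of the other letters searched, the ETS site CCGGAAG was in 17 subunit promoters (24.3%, against 21.4% of tested genes), CCAAT in 31 (44.3% against 43%), TATAAA in 8 (11.4% against 8.47%) and the ERR site TCAAGGTCA in 2 (2.86% against 0.322%). Such a match describes the letters only and shows no binding.

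At least 1 read was found for 82 of the 85 genes, and 80 passed the filter on low counts for the comparison of the populations. The 5 that did not are isoform genes of complex IV: Cox4i2, Cox7b2, Cox8b, Cox8c and Ndufa4l2. Levels of different genes were compared per gene length, as RPKM (CPM, counts-per-million of a library, divided by the gene length in kilobases; mean ± SD of 6 chips), using the lengths in the authors' table. The median over the 80 genes was 168.4 RPKM, against 11.1 for all 11797 genes tested. A gene was called detected in a cell at 5 or more of 200000 thinned reads, and 25 of the 80 subunit genes were detected in at least 80% of cells, against 3.57% of all genes tested.

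**Figure D1:**
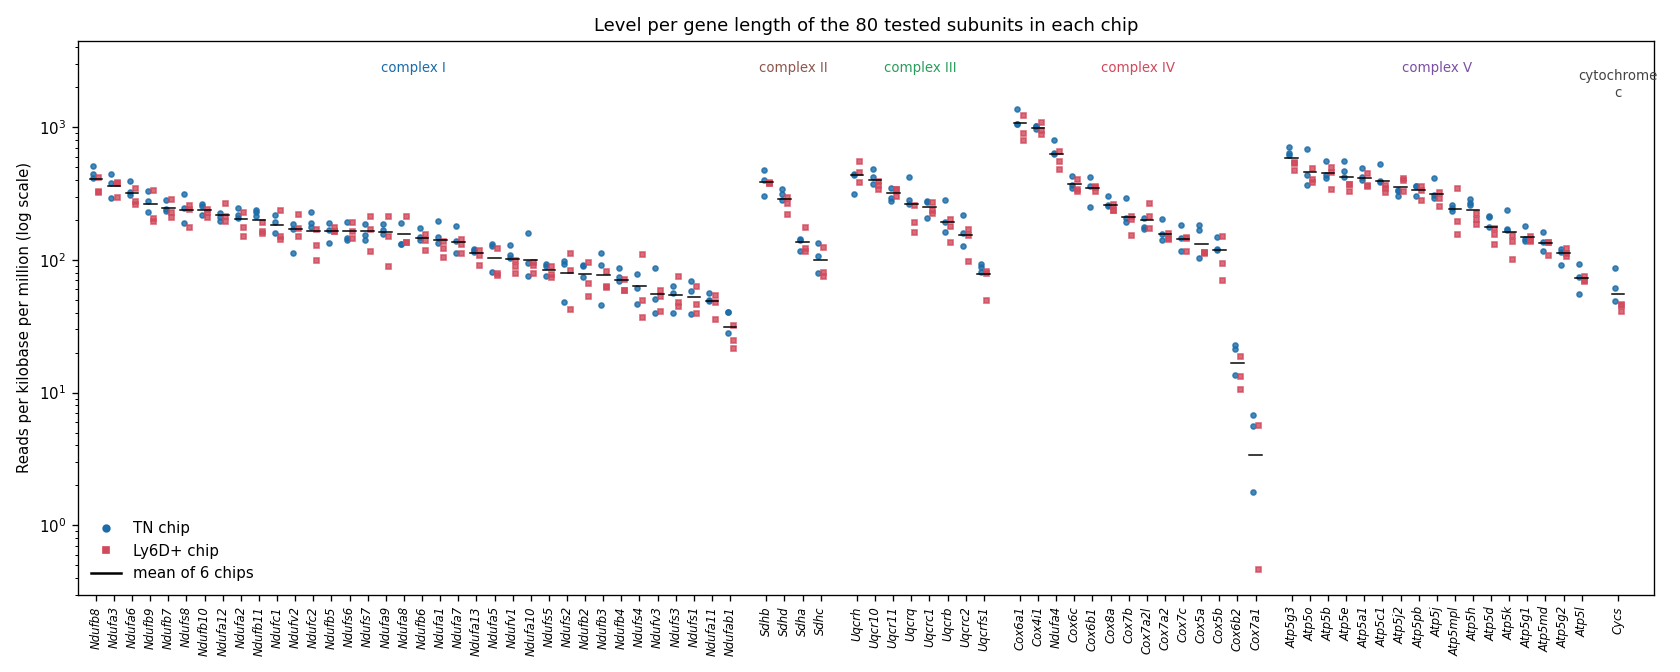
Level per gene length (RPKM, log axis) of the 80 tested subunit genes, ordered within each complex; points are the 3 TN chips (blue circles) and 3 Ly6D+ chips (red squares), and the bar is the mean of 6 chips. Cox6a1 and Cox4i1 stand highest and Cox6b2 and Cox7a1 lowest; a chip without reads of Cox7a1 has no point on the log axis.

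Complex V had the highest median level of the complexes, 316 RPKM over its 17 genes, all of which were detected in at least 50% of the cells. The medians were 256 RPKM in complex III, 213 in complex II, 206.05 in the 14 tested genes of complex IV and 152 in complex I. The spread within a complex was wider than that between complexes. Complex I ranged from 31.4 RPKM for Ndufab1, the mitochondrial acyl carrier protein, to 409 ± 72 for Ndufb8, an accessory subunit of its membrane arm. In complex II the iron-sulfur subunit Sdhb was highest at 389 ± 55 RPKM, followed by the membrane anchor Sdhd at 289 ± 42, the flavoprotein Sdha at 136.5 ± 23 and the other anchor Sdhc at 100.6 ± 25. In complex III Uqcrh, the hinge protein beside cytochrome c1, was highest at 433 ± 81 RPKM.

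The 2 highest genes of all were complex IV subunits: Cox6a1 at 1072 ± 208.2 RPKM and Cox4i1 at 993 ± 65 RPKM. Their chip values overlapped, so their order is not resolved. Ndufa4 followed at 626 ± 105.5 RPKM. Cytochrome c itself was low per length at 54.9 ± 17 RPKM, yet Cycs was detected in 85.5% of cells. Its level per length depends on the gene length in the authors' table.

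Isoform genes of one subunit were unequal. The ring subunit c of ATP synthase is encoded by 3 genes whose mature proteins are identical. Atp5g3 was highest at 590 ± 83 RPKM, with Atp5g1 at 148.7 ± 16 and Atp5g2 at 112.2 ± 11, and the chips of Atp5g3 did not overlap with those of the others. Cox4i1 was detected in 95.1% of cells, whereas Cox4i2, the isoform known from lung, had reads in 4 cells. Cox7a2 stood at 158.03 ± 23 RPKM and Cox7a2l at 201.6 ± 37, while Cox7a1, the isoform of heart and skeletal muscle, had reads in 11 cells and a level of 3.40 ± 2.98 RPKM. Cox6b1 stood at 346 ± 56 RPKM, and Cox6b2, known from testis, at 16.9 ± 5.0 with reads in 78 cells. Cox8a stood at 259 ± 24 RPKM. Its relatives Cox8b (heart and muscle) and Cox8c (testis), and Cox7b2, had 0 reads among 308716158. That count allows up to 0.00972 CPM (3 counts over all cells, counting error only) and sets no limit on the share of cells that express these genes. Ndufa4l2, a relative of Ndufa4, had 12 reads spread over 7 cells.

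The question put to the populations is whether lymphoid-marked Ly6D+ cells and TN cells differ in transcripts of the respiratory chain. No subunit gene passed the test between them. In edgeR's quasi-likelihood test of summed chips, 0 of 80 genes had an adjusted p under 0.05, and 0 of 80 had an unadjusted p under 0.05. Over all 11797 genes edgeR called 24 (0.203%), and 8.38% had an unadjusted p under 0.05. DESeq2 and limma-trend also called 0 of 80, although they called 3.58% and 2.76% of all genes. Values nonetheless leaned one way: the log2 fold change of Ly6D+ against TN was negative for 64 of 80 subunit genes (80%), with a median of -0.16, whereas 49.1% of all tested genes were negative, with a median of 0.01. That count varied with the processing, at 52 of 80 by limma-trend, 56 of 80 without TN chip 3 and 69 of 81 without Ly6D+ chip 6. The genes share chips and scaling, so their signs are not independent. The 95% confidence interval lay within 1 log2 unit of 0 for 58 of the 80 (72.5%), against 13.5% of all genes. Most of all tested genes have far lower levels, and the median standard error was 0.27 log2 units for the subunit genes and 0.66 for all genes.

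**Figure D2:**
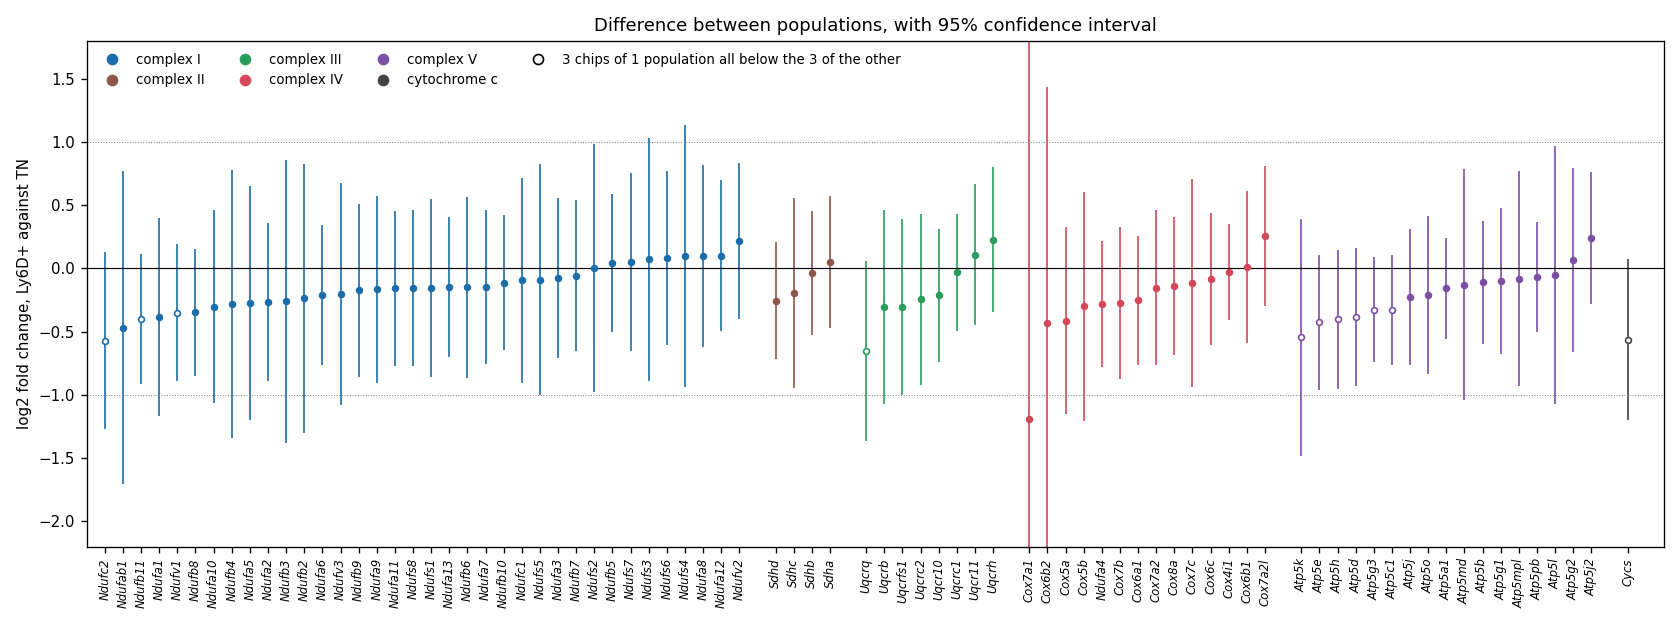
log2 fold change of Ly6D+ against TN for the 80 tested genes by complex, with 95% confidence interval computed from edgeR's F statistic. Hollow points mark genes whose chip values did not overlap between populations. Most points lie below 0 and every interval includes 0; the intervals of Cox7a1 and Cox6b2 run past the axis.

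The 3 Ly6D+ chips all lay below the 3 TN chips for 11 of the 80 genes: Ndufb11, Ndufc2, Ndufv1, Uqcrq, Atp5c1, Atp5d, Atp5e, Atp5g3, Atp5h, Atp5k and Cycs. No subunit gene had all Ly6D+ chips above all TN chips. Over all tested genes the same pattern held for 7.75% on the lower side and 7.63% on the higher side. Of the 11 genes, 6 belong to complex V and 3 to complex I, and none to complexes II or IV. With total reads in place of TMM scaling, 14 genes were lower without overlap and 0 higher, against 8.49% and 7.07% of all genes. Ndufv1 was then no longer among them, and Ndufa13, Ndufb4, Uqcrfs1 and Sdhd of complex II were.

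Complex I carries electrons from NADH. Ndufc2, a membrane arm subunit, had the most negative log2 fold change of its 36 genes: 121.5, 156.97 and 128.6 CPM on the TN chips and 88.6, 67.7 and 117.04 CPM on the Ly6D+ chips. The highest Ly6D+ chip stayed just under the lowest TN chip, and the log2 fold change was -0.57 ± 0.30 (SE), with an adjusted p of 0.692 by edgeR. Ndufv2, a subunit of the NADH-binding module, had the most positive one at 0.22 ± 0.27 (adjusted p = 0.902, edgeR). Its TN chips at 281, 184.7 and 308 CPM overlapped with the Ly6D+ chips at 249, 283 and 366 CPM. Ndufb8, the highest gene of the complex, had 287, 266 and 329 CPM on the TN chips and 211.1, 208.8 and 272 CPM on the Ly6D+ chips, with 1 Ly6D+ chip inside the TN range. Over the complex 27 of 36 values were negative, with a median of -0.16.

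The 4 succinate dehydrogenase genes of complex II had a median log2 fold change of -0.11, the closest to 0 of the complexes. Sdhb stood at 429, 328 and 512 CPM on the TN chips and at 411, 411 and 416 CPM on the Ly6D+ chips. The Ly6D+ chips were all inside the TN range, and the log2 fold change was -0.04 ± 0.21. Sdhd gave the most negative value of the 4, -0.26 ± 0.20 (adjusted p = 0.811, edgeR), and Sdha the most positive, 0.05 ± 0.23. The 95% intervals of all 4 genes lay within 1 log2 unit of 0.

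In complex III, which takes electrons from ubiquinone, Uqcrq and Uqcrh had fold changes of opposite sign. Uqcrq, a small subunit that helps to bind ubiquinone, had 142.2, 130.85 and 210.97 CPM on the TN chips and 81.4, 96.97 and 128.9 CPM on the Ly6D+ chips. Its log2 fold change of -0.65 ± 0.31 had the lowest p of all subunit genes, 0.067 before adjustment and 0.634 after it by edgeR. Uqcrh had 244, 170.8 and 240 CPM on the TN chips and 210.8, 250.8 and 303 CPM on the Ly6D+ chips, a log2 fold change of 0.22 ± 0.25 with overlapping chips.

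The abundant complex IV genes differed little between the chips of the populations. Cox4i1, which binds ATP as a regulatory subunit, had 690, 661 and 692 CPM on the TN chips and 609, 652 and 739 CPM on the Ly6D+ chips, with a log2 fold change of -0.03 ± 0.17. Cox6a1 had 569, 732 and 563 CPM against 485, 654 and 425 CPM (-0.25 ± 0.22). Cox7a2l had the most positive log2 fold change of all 80 genes, 0.25 ± 0.24 (adjusted p = 0.847, edgeR). Its chips overlapped at 195.9, 236 and 202.5 CPM in TN and 248, 200 and 308 CPM in Ly6D+. The most negative fitted value, -1.19 ± 1.90 for Cox7a1, rests on 422 reads in 11 cells. The other isoform genes lay between -0.43 ± 0.81 for Cox6b2 and 0.01 ± 0.26 for Cox6b1.

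Of the ATP synthase genes of complex V, 15 of 17 had a negative log2 fold change, with a median of -0.16. Atp5g3 had 438, 419 and 481 CPM on the TN chips and 325, 368 and 372 CPM on the Ly6D+ chips, all lower. Its log2 fold change was -0.33 ± 0.18, with an adjusted p of 0.700 by edgeR. Its isoform genes Atp5g1 (-0.10 ± 0.25) and Atp5g2 (0.06 ± 0.32) had overlapping chips. Atp5k, the small subunit e of the membrane part, had 49.8, 49.5 and 69.2 CPM in TN and 29.9, 44.7 and 40.7 CPM in Ly6D+ (-0.55 ± 0.41, the most negative of the complex). Atp5j2, the membrane subunit f, had the most positive value, 0.24 ± 0.23, with 157.7, 144.6 and 160 CPM in TN against 158.7, 196.1 and 190.7 CPM in Ly6D+. Its lowest Ly6D+ chip lay inside the TN range.

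Cycs encodes the mobile carrier between complexes III and IV, which also starts apoptosis once it leaves the mitochondrion. It had 148.9, 187.25 and 265 CPM on the TN chips and 138.7, 125.4 and 142.75 CPM on the Ly6D+ chips. All Ly6D+ chips were lower and also lay closer together. The log2 fold change was -0.56 ± 0.28, with an adjusted p of 0.659 by edgeR.

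Grouped by the promoter letters described above, the median log2 fold change was -0.05 for the 9 tested genes with the NRF1 core and -0.17 for the 59 without it. It was 0.05 for the 7 genes with the YY1 letters and -0.20 for the 61 without. These are descriptions of few genes and were not tested.

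Summed over all subunit genes, the mean share of a cell's gene reads was 1.67%, 1.58% and 1.61% on the TN chips and 1.40%, 1.32% and 1.54% on the Ly6D+ chips. All Ly6D+ chips were lower, at 1.42% ± 0.11 against 1.62% ± 0.04 (SD, n = 3 chips each). Complex V took the largest part, 0.537% ± 0.018 in TN and 0.459% ± 0.039 in Ly6D+ cells, although it has fewer genes than complex I, with 0.469% ± 0.017 and 0.414% ± 0.024. Complex IV had 0.298% ± 0.004 and 0.263% ± 0.021, complex III 0.164% ± 0.012 and 0.146% ± 0.024, and complex II 0.132% ± 0.006 and 0.123% ± 0.014. Because a share is relative to all other reads, a lower share and a higher output of other genes cannot be told apart.

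Markers of several cell types also differed between the populations. Because each chip held 1 population, a link of these markers to the share cannot be told apart from population or chip. Granulocyte and monocyte markers (8 genes, summed) were at 1594 to 3525 CPM on the TN chips and 74.3 to 340 CPM on the Ly6D+ chips, and 4, 4 and 5 of the 8 were detected in at least 20% of cells on the TN chips against 0, 2 and 0 on the Ly6D+ chips. Cebpe had no read on any chip, and Elane none on the Ly6D+ chips. Conventional dendritic markers (8 genes) stood at 3465 to 5357 CPM in TN and 668 to 1308 CPM in Ly6D+, with 4 of the 8 detected in at least 20% of cells on each TN chip and 3, 4 and 3 on the Ly6D+ chips. Early lymphoid markers (8 genes) went the other way, at 1491 to 2018 CPM in TN and 8781 to 9926 CPM in Ly6D+. Of these, 4, 5 and 4 against 8, 8 and 8 were detected in at least 20% of cells. The 8 include the gate gene Ly6d, at a mean of 177.5 CPM in TN and 2818 CPM in Ly6D+. Part of this difference was thus fixed by the sort. B-lineage markers (9 genes) were also higher in Ly6D+, at 137.1 to 587 CPM in TN and 2205 to 2818 CPM in Ly6D+. Megakaryocyte and mast cell markers were low, at 63.4 to 184.4 CPM in TN and 2.01 to 38.3 CPM in Ly6D+, and the chips overlapped for plasmacytoid dendritic and for T and innate lymphoid markers. The part of any of these cell types in the result was not tested. When the cells with Mpo or Prtn3 were left out of both populations, a choice made after seeing the data, the TN chips stood at 1.55%, 1.47% and 1.44% and the Ly6D+ chips at 1.39%, 1.32% and 1.51%. The populations then overlapped, and the difference of the means shrank from -0.20 to -0.08 percentage points. The median log2 fold change without the Mpo or Prtn3 cells was -0.19 with TMM scaling (all genes -0.02) and -0.10 with total reads (all genes 0.05). Of 79 subunit genes, 56 were negative with TMM scaling and 49 with total reads. Other cells left out changed the share difference less. Without Mki67-detected cells, also a choice made after seeing the data, it was -0.17 percentage points and the chips did not overlap. Without cells with few genes it was -0.20. The summed markers of erythroid cells were at 0 to 37.2 CPM on all chips, with Hba-a1 at 0.

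**Figure D3:**
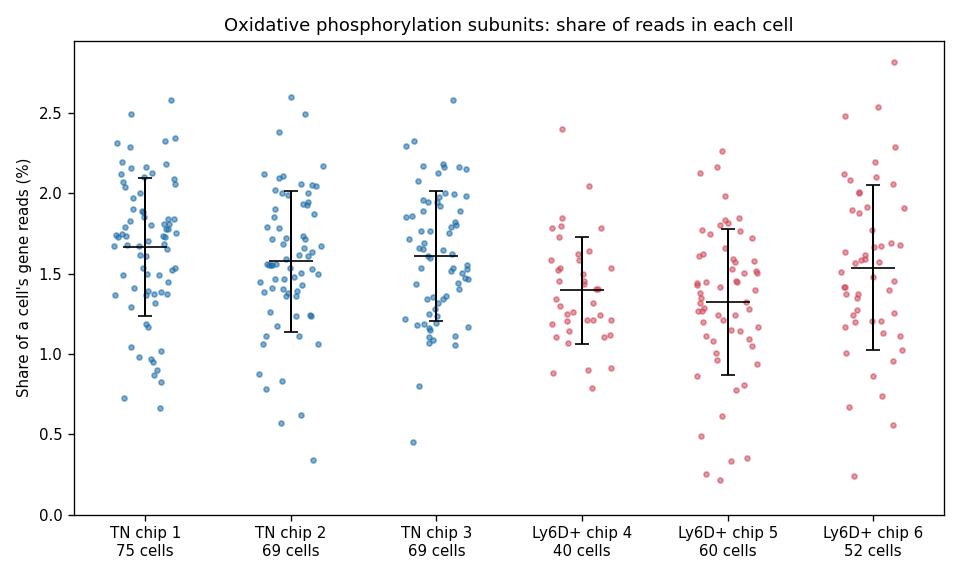
Share of gene reads from the 85 subunit genes in each cell (points, percent) on each chip; the bar is the chip mean and the whiskers 1 SD over cells. Cells of a chip spread from under 0.8% to over 2.2%, and the chip means, each over 40 to 75 cells, run from 1.32% to 1.67%.

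The share ran from 0.213% to 2.82% over all cells, with a median of 1.53%, with a coefficient of variation within chips of 0.26 ± 0.01 (TN) and 0.30 ± 0.06 (Ly6D+). A median of 58 subunit genes were detected per cell, with 7 in the lowest cell and 75 in the highest. The mean per chip was 54.7 ± 1.7 in TN and 53.7 ± 4.2 in Ly6D+ cells, and the chips overlapped. Fewer than 30 subunit genes were detected in 29 cells, of which 5, 8 and 5 were on TN chips 1, 2 and 3 and 0, 9 and 2 on Ly6D+ chips 4, 5 and 6. Those cells also had few genes of any kind, a median of 1273 against 2714 over all cells, and their part in the result was not tested. Across chips the subunit genes were steadier than most: the median SD of log2 CPM was 0.23 over TN chips and 0.21 over Ly6D+ chips, against 0.56 and 0.61 for all tested genes, most of which are far lower.

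Complex totals were positively but weakly correlated from cell to cell, as they also were with genes outside the respiratory chain. Within TN chips the Spearman correlation across cells, after thinning to equal reads, was 0.42 ± 0.04 between complexes I and V, 0.41 ± 0.03 between IV and V and 0.36 ± 0.04 between I and IV (mean ± SD of 3 chips). In Ly6D+ cells the same pairs gave 0.50 ± 0.19, 0.47 ± 0.05 and 0.44 ± 0.15. Complexes III and V were correlated at 0.37 ± 0.07 in TN and 0.43 ± 0.13 in Ly6D+ cells. Complex II followed the others less by these means, at 0.07 to 0.22 in TN and 0.14 to 0.25 in Ly6D+ cells. Single chips varied widely, from -0.08 to 0.26 for II with IV in TN and from -0.11 to 0.38 for I with II in Ly6D+. The latter overlapped with I with III, at 0.04 to 0.39 on the Ly6D+ chips. Complex II has only 4 genes, and the part of that in the result was not tested. Cells of a chip were captured together and differ in how many genes they yield. The share of all subunit genes itself followed the number of genes detected at 0.38 ± 0.12 in TN and 0.33 ± 0.22 in Ly6D+ cells. Complexes I to V followed that number at means of 0.22 to 0.41 in TN and 0.17 to 0.37 in Ly6D+ cells. With glycolytic enzymes they were correlated at 0.15 to 0.36 and 0.11 to 0.36. These ranges overlap with those between complexes, and the part of gene yield in the result was not tested.

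**Figure D4:**
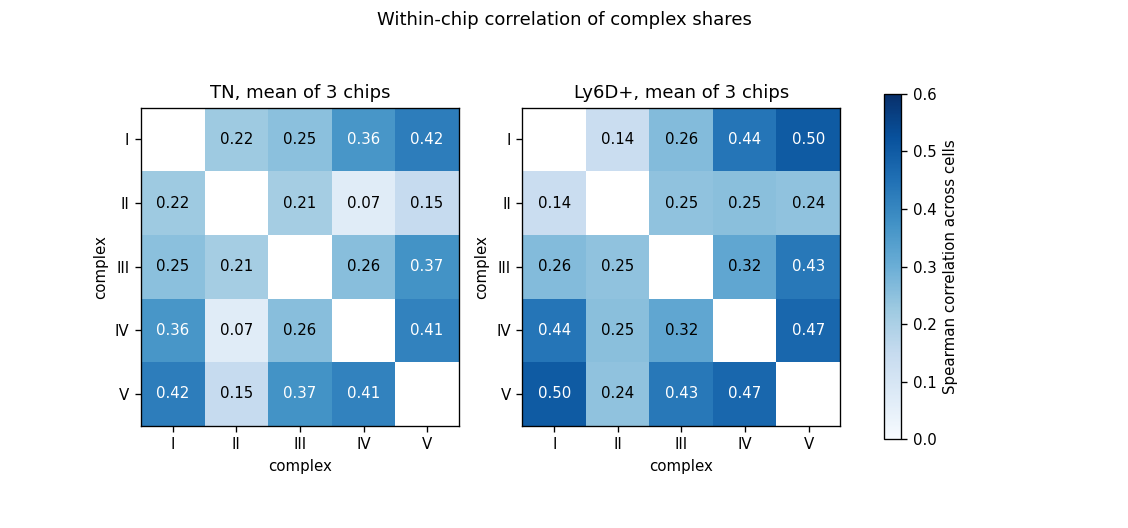
Spearman correlation across cells between the read shares of complexes I to V, computed within each chip and averaged over the 3 chips of a population (left TN, right Ly6D+). The pairs I with V and IV with V are the darkest in both panels, and pairs with complex II the palest.

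Pairs of genes from the same complex and pairs from different complexes had similar, low correlations. Over the 66 genes detected in at least 50% of the cells, the median correlation was 0.14, 0.14 and 0.13 on the TN chips for 551 pairs within a complex and 0.14, 0.14 and 0.14 for 1594 pairs between complexes. The Ly6D+ chips gave 0.03, 0.18 and 0.19 within and 0.04, 0.20 and 0.18 between. Correlations of this size in sparse counts describe these chips and are no finding of their own.

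Cells were next split by marker genes, each compared within its chip (chip as a block, edgeR). A class means that a marker reached 5 of 200000 thinned reads and is no cell type by itself. Mki67, a gene of dividing cells, was detected in 62% ± 1.9 of the cells on TN chips (45, 44 and 43 cells) and in 47.7% ± 7.5 on Ly6D+ chips (22, 24 and 25 cells), and 43 cells lay near the limit. No subunit gene passed between them and the other cells: edgeR and DESeq2 each called 0 of 79. Of all 10640 genes edgeR called 0.15% and DESeq2 5.63%. The edgeR calls held Top2a and Ccnb2 of cell division, and Mki67 itself, whose call was fixed by the split. The median log2 fold change was 0.11, close to the 0.08 of all genes. The share of subunit reads was nevertheless higher in Mki67-detected cells on 6 of 6 chips, at 1.60% ± 0.12 against 1.42% ± 0.12. The complex I and complex V shares were higher on 6 of 6 chips, and Cycs on 3 of 6.

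Atp5b, the catalytic beta subunit of ATP synthase, had the lowest p in that comparison. In TN chips it had 937, 1117 and 862 CPM in Mki67-detected cells and 642, 900 and 606 CPM in the others. In Ly6D+ chips it had 961, 875 and 988 CPM against 698, 484 and 882 CPM. It was thus higher on 6 of 6 chips, with a log2 fold change of 0.48 ± 0.13 and an adjusted p of 0.310 by edgeR. Ndufs1, the largest iron-sulfur subunit of complex I, was higher on 6 of 6 chips (0.69 ± 0.27), and Ndufa9, also of complex I, on 5 of 6 (0.68 ± 0.21). These 3 of 79 were the ones with an unadjusted p under 0.05, against 7.6% of all genes, and are named for that, after their values were seen. In these cells more genes of every kind were detected, 2818 ± 128.8 against 2332 ± 263, and its part in the result was not tested.

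Among TN cells, 38, 30 and 38 per chip had Mpo or Prtn3, genes of granule proteins of myeloid cells, and 37, 39 and 31 had neither. Near the limit lay 20 cells. No subunit gene passed: edgeR called 0 of 80 and DESeq2 0 of the 79 for which it gave an adjusted p, against 0.00912% of all 10959 genes by edgeR and 5.34% of all genes by DESeq2. The median log2 fold change was 0.14 against 0.06 over all genes. On each of the 3 chips the share was higher in the Mpo or Prtn3 cells, with 1.78%, 1.72% and 1.75% against 1.55%, 1.47% and 1.44% in the others, and the 2 classes did not overlap. Sdhd was the gene with the largest such difference among those with an unadjusted p under 0.05 (Sdhd, Uqcrc1 and Atp5b, 3 of 80 against 6.54% of all genes, named after their values were seen). It had 549, 470 and 542 CPM in the class and 171.8, 350 and 292 CPM outside it, a log2 fold change of 0.99 ± 0.30 (adjusted p = 0.732, edgeR). Uqcrc1, a core subunit of complex III, differed by 0.86 ± 0.26 and Atp5b by 0.43 ± 0.17, each on 3 of 3 chips. More genes were detected in the class too, 2855 ± 118.4 against 2199 ± 93, and 18 of 20 division genes had a positive log2 fold change (median 0.40). The part of either in the result was not tested.

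**Figure D5:**
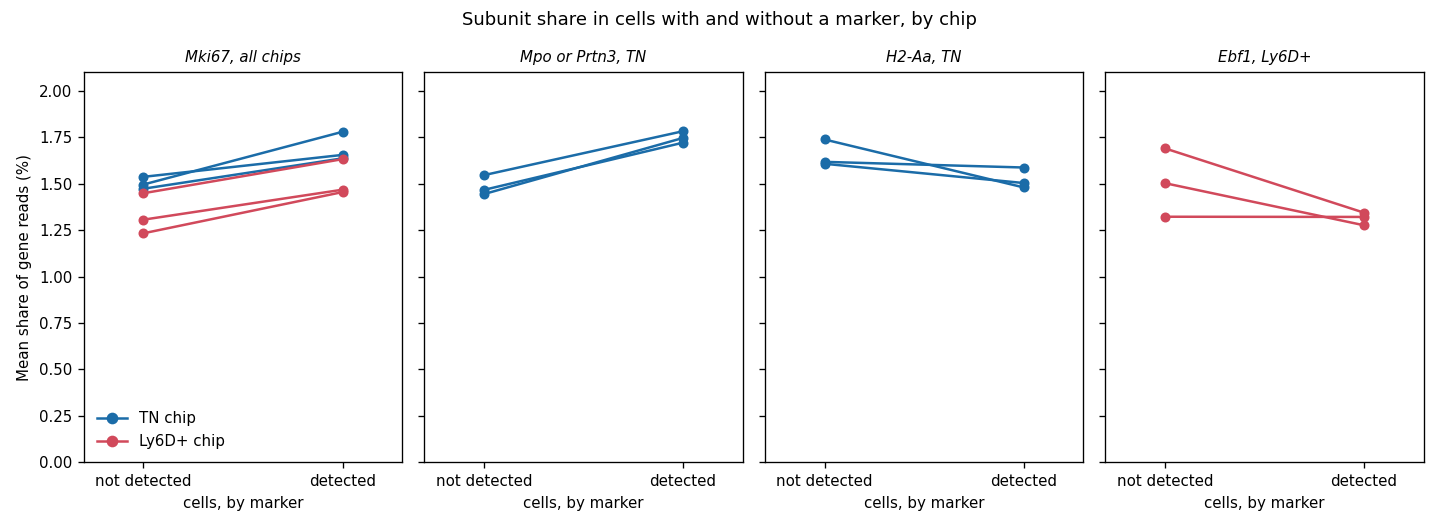
Mean share of gene reads from the subunit genes (percent, axis from 0) in cells without and with a marker, 1 line per chip (blue TN, red Ly6D+). Lines rise for Mki67 on 6 of 6 chips and for Mpo or Prtn3 on 3 of 3, and fall or stay level for H2-Aa and Ebf1.

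H2-Aa, an MHC class II gene of antigen-presenting cells, was detected in 57 TN cells and not in 54, 49 and 53 cells of the chips, with 14 near the limit. Both edgeR and DESeq2 called 0 of 81 subunit genes, and 0 had an unadjusted p under 0.05. Of all 10847 genes edgeR called 0.0369% and DESeq2 5.74%, and 5.19% had an unadjusted p under 0.05 by edgeR. The share was lower in the H2-Aa cells on 3 of 3 chips, at 1.48%, 1.504% and 1.59% against 1.74%, 1.61% and 1.62%, although the third pair was close. The direction per gene depended on the scaling: the median log2 fold change was 0.08 with TMM and -0.12 with total reads, while that of all genes was -0.42 and -0.62. On both scales the subunit genes stood above the median of all genes. Fewer genes were detected in these cells, 2061 ± 150 against 2695 ± 111.8, and 14 of 20 division genes had a negative log2 fold change (median -0.41). The part of either in the result was not tested.

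Ebf1, a transcription factor of the B lineage, was detected in 64 Ly6D+ cells and not in 88, with 12 near the limit. Both tools called 0 of 79 subunit genes, against 0.00938% of all 10659 genes by edgeR and 3.86% by DESeq2. The median log2 fold change was -0.15 against -0.09 over all genes, and 57 of 79 values were negative. The share was 1.28%, 1.32% and 1.34% in the Ebf1 cells and 1.503%, 1.32% and 1.69% in the others, so it was lower on chips 4 and 6 and level on chip 5. The number of genes detected followed the same chips, with 2657 against 2984 on chip 4, 2617 against 2917 on chip 6 and 2500.05 against 2406 on chip 5. Division genes had a negative log2 fold change in 20 of 20 cases (median -1.05), and the part of either in the result was not tested. Uqcrc1 alone, 1 of 79 against 4.4% of all genes, had an unadjusted p under 0.05, with 269, 258 and 364 CPM against 449, 465 and 514 CPM, a log2 fold change of -0.67 ± 0.24 (adjusted p = 0.9995, edgeR).

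Related gene lists and the division genes gave no calls between the populations either, by edgeR at an adjusted p under 0.05. Of all tested genes 0.203% were called. Values were negative for 24 of 45 assembly factors (median log2 fold change -0.05), for 15 of 23 other carriers and pathway genes such as ubiquinone synthesis and ATP export (-0.15) and for 13 of 17 tricarboxylic acid cycle enzymes (-0.13). Regulators of mitochondrial biogenesis were mostly positive, with 13 of 19 above 0 (0.15). Of 16 glycolytic enzymes 12 were negative, with a median of -0.41, and of 20 division genes 16 were negative (-0.24). At an unadjusted p under 0.05 stood 0 assembly factors, 3 carriers on the higher and 1 on the lower side, 1 cycle enzyme, 1 regulator, 3 glycolytic enzymes and 0 division genes, against 504 higher and 484 lower of all 11797 genes.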

How the data were processed

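The members and gene lists were chosen with earlier results of these data known. Per the labels' protocols, single cells were caught on C1 chips and polyA RNA was amplified with a SMARTer kit into Nextera XT libraries, which carry no molecular identifiers and no strand. The authors deposited raw read counts per gene and cell, and gene lengths as a score column in bases, used here for levels per length. Per the submitters' processing notes, mm9 was the genome build and R 3.2.0 a tool. The labels name neither aligner nor counter, annotation or doublet treatment (not given in the sources used here). Doublets were not called. Per the series' design text the deposited cells had passed filters on mapping, counts and genes. Entrez identifiers were named through RefSeq (23334 of 23427), and reads of near-identical copies or processed pseudogenes may be split or merged.

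Chip sums of counts entered edgeR 4.0.16 under R 4.3.3 (quasi-likelihood F-test, TMM, filterByExpr, Benjamini-Hochberg over all genes, threshold 0.05). CPM are relative to TMM-scaled library sizes. Classes of cells were tested with the chip as a block. The marker that defines a class was part of the choice and stayed in the fit, so the counts over all genes can include it. Cells were thinned to 200000 reads for detection and correlations, and the lowest cell held 267852. The named genes are those that are highest, most positive and most negative per complex, fixed isoform groups, and others where stated. DESeq2 1.42.0, limma 3.58.1, other scalings, no filter, and chips or cells left out were alternatives. The fits were tested on simulated data, where they gave the right sign for the changed genes they called but missed most of the changed genes. Floors cover counting error only. The edgeR test returns no standard error, so SE was computed as the absolute log2 fold change over the square root of the F statistic. Each 95% confidence interval is the log2 fold change plus or minus a t quantile times this SE. Such intervals include chip-to-chip spread and restate the F-test as a range. The SE is unreliable where F is near 0, and in the class fits it was not finite for some of all genes. Promoters are those of RefSeq, GRCm38.p6, and were not in the authors' build, so no count was read from coordinates. The 5 related lists and the division genes are printed once.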

Additional observations from a re-analysis of the deposited data

Results flagged for a closer look

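Atp5j2, the membrane subunit f of ATP synthase, was the 1 result of 30 compared (6 complex shares and 24 named genes) whose difference between Mki67-detected and other cells had opposite signs on every chip of the 2 populations. On the TN chips it was lower in the Mki67-detected cells, with 155.8, 133.6 and 155.4 CPM against 162.1, 165.03 and 167.4 CPM, a mean difference of -16.6 CPM. On the Ly6D+ chips it was higher, with 191.06, 221.3 and 199.3 CPM against 104.8 to 181.07 CPM, a mean difference of 48.9 CPM. Neither population passed edgeR's quasi-likelihood test for the gene, with log2 fold changes of -0.16 ± 0.32 in TN and 0.46 ± 0.34 in Ly6D+ cells. The difference of the 2 effects, tested as an interaction in edgeR, was 0.60 ± 0.43 with an unadjusted p of 0.205. Over all 80 subunit genes that interaction called 0, with 1 at an unadjusted p under 0.05, and 0 of 11861 genes in all, with 430 at an unadjusted p under 0.05. Groups of 3 chips are too small for an outlier test. How many of all genes show such opposite signs was not counted, so 1 of 30 is no finding by itself.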

How the results depend on the processing

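No subunit gene was called in any of the 5 comparisons under any alternative run. With DESeq2 the lowest adjusted p of a subunit gene came near the threshold, at 0.0617 for Mpo or Prtn3 and 0.0795 for Mki67. The median log2 fold change of the subunit genes kept its sign in all alternatives except for H2-Aa, where total reads gave -0.12 in place of 0.08. Its range was -0.22 to -0.10 between the populations, 0.08 to 0.18 for Mki67, 0.10 to 0.22 for Mpo or Prtn3, -0.12 to 0.26 for H2-Aa and -0.22 to -0.12 for Ebf1. A choice made after seeing the data moved 1 value. Leaving out Mpo- or Prtn3-detected cells gave a difference in read share of -0.0823 percentage points in place of -0.20. These cells had the higher share on each TN chip, so their removal lowers the TN means by construction, and a cause was not tested. Counts over all genes moved by far more than 1.5 times. DESeq2 called 396 genes between the populations and limma-trend 326, against 24 by edgeR, and DESeq2 called 599 for Mki67, 551 for Mpo or Prtn3, 623 for H2-Aa and 403 for Ebf1, against 16, 1, 4 and 1. Leaving out 1 chip gave 2 to 23 calls between the populations, with 2 without Ly6D+ chip 6, 4 without chip 4 and 8, 12 and 7 without TN chips 1, 2 and 3. Without Mki67-detected cells 4 genes were called. Leaving out 1 chip gave 0 to 3 calls for Mki67, 0 to 1 for Mpo or Prtn3 (0 without TN chip 1), 3 to 8 for H2-Aa (8 without TN chip 1) and 0 to 1 for Ebf1 (0 without Ly6D+ chip 5), and the cause was not tested. No paired analysis was possible between the populations because each chip held cells of 1 population. For the classes the chip is the block, since cells of a chip were captured together. With no replicate block the edgeR calls were 11, 5, 4 and 1, and the subunit medians 0.08, 0.10, 0.16 and -0.15, none with a subunit call. Genes per cell and 3 chips per group limit what can be resolved: the median standard error of a subunit gene between the populations was 0.27 log2 units.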
